A study of Homo sapiens with 8 samples.

Results

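MGMT, ALKBH2, ALKBH3, MPG, MSH6 and PMS2 are genes of alkylation repair and mismatch repair, and their RNA levels were followed through 4 cell lines of a breast cancer progression series. These 6 genes, of 56632 in the deposited count table, were chosen by name with their measured levels in these same libraries already known, so their levels are given as a description and no test was made on them. All 6 were among the 18431 genes that passed the filter on low counts and entered the fits. MGMT passed through M1, M2 and M4, the lines in which it was detected.

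Poly A+ RNA was sequenced from 2 biological replicates of each line, grown for 8 days as three-dimensional structures in Matrigel. M1 is MCF10A, an immortalized, non-tumorigenic mammary epithelial line that carries no introduced oncogene. The other lines all descend from MCF10A cells that received an activated HRAS (T24-HRAS). M2, or MCF10AT1k.cl2, was recovered after growth of those cells in a host animal. M3 (MCF10Ca1h) and M4 (MCF10CA1a.cl1) each came from a tumour formed by grafted M2. The medium of every line held 2% horse serum, hydrocortisone, cholera toxin and insulin, and EGF (10 ng/ml) was withheld from M3 and M4. Which cells received it is written as "M2-M2" in the study's methods and was taken to mean M1 and M2. On that reading, for M3 or M4 set against M1, the effects of line and EGF cannot be told apart, whereas M3 and M4 shared a medium. Each stage is 1 established line, so the replicates are cultures of that line and their spread does not cover other lines of the same stage.

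Alkylating agents, which include compounds made in metabolism and drugs such as temozolomide, add methyl or larger groups to DNA bases. A group on the oxygen of guanine is taken off in a single step by MGMT, which transfers it to its own active-site cysteine and is used up in doing so. Groups on ring nitrogens are oxidised away by ALKBH2 and ALKBH3 or leave with the whole base, which the glycosylase MPG cuts out as the first step of base excision repair. Where methylated guanine is left and pairs with thymine, the mispair is bound by a complex that contains MSH6, after which a complex that contains PMS2 nicks the DNA, and cells that lack MGMT but keep mismatch repair are known to be sensitive to methylating drugs. The MGMT promoter is a CpG island, and its methylation in tumours is a known route to loss of expression.

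The start regions of the 3 members whose levels differed most between the lines are shown because they give the CpG content around each start. Each runs from 250 bases before to 50 bases after the annotated start (RefSeq, build GRCh38.p14), is written 5′ to 3′ on the strand of the gene, and has every CG in capitals. MGMT is at chr10:129466991-129467290 on the plus strand, MSH6 at chr2:47782895-47783194 on the plus strand and PMS2 at chr7:6009057-6009356 on the minus strand.
MGMT: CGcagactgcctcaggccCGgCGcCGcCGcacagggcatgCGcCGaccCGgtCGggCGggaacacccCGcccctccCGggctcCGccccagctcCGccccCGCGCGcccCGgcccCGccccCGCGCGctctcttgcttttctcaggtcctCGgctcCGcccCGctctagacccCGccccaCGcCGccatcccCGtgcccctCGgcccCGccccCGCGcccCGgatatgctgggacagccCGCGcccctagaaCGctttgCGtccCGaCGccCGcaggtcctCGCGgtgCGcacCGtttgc
MSH6: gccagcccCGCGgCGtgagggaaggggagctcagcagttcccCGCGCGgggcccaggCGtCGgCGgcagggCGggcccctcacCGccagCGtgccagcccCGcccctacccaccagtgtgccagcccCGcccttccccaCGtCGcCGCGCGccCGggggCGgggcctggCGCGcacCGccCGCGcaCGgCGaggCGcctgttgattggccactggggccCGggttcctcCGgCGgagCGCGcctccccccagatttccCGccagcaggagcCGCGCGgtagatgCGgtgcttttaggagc
PMS2: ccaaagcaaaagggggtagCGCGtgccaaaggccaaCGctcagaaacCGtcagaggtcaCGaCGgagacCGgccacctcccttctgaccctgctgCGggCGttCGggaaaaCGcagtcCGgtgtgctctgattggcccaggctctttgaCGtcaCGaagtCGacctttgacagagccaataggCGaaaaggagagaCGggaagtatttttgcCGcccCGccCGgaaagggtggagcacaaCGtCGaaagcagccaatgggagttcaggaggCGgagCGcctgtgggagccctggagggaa
The MGMT window held 45 CG, the MSH6 window 39 and the PMS2 window 24. As many CG or more were found in 4.61%, 11.5% and 46.0% of the 15842 windows of the same length around coding starts. The letters GGGCGG, searched on both strands and each overlapping a CG, occurred 8 times in the MGMT window, and 1.17% of windows held as many. MSH6 held 5 (as many in 7.34% of windows) and PMS2 held 2 (36.8%). MPG, ALKBH2 and ALKBH3, not printed, held 34, 24 and 21 CG. DNA methylation was not measured in these libraries.

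Levels are given as CPM (counts per 1000000), scaled with TMM (trimmed mean of M values) factors, and a difference between lines as a fitted log2 difference with its standard error (SE) from edgeR. Library totals ran from 69669945 to 107350288. Replicates were not equally close, the chi-square of their counts per degree of freedom being 6.65 in M2, 111 in M4, 233 in M1 and 293 in M3. A table of the study gives 2 libraries under the other line: its M1 replicate 2 column followed the library labelled M2 replicate 1 (r = 0.977 across 148 genes), and its M2 replicate 1 column followed the library labelled M1 replicate 2 (r = 0.985), while the other 6 columns followed their own label. The sample labels were used. Counts of calls are given both ways. So are the differences of a member that moved by more than the replicate spread when these 2 libraries were exchanged. The exchange puts the 2 libraries labelled M2, the closest pair of replicates by the chi-square above, in different lines. Which labelling is right was not tested. HRAS itself lay between 139 and 160 CPM in the 4 libraries of M1 and M2 and between 269 and 352 CPM in those of M3 and M4, so it did not tell M1 from M2. All 8 epithelial markers were detected in every library, with summed levels of 7714 to 17675 CPM. Of 8 markers of fibroblasts, immune cells and endothelium, 7 were matched, COL1A2 and CD3E were at 0 throughout, and the summed level was 6.55 to 74.3 CPM. By line, that sum was 60.3 and 8.71 CPM (M1), 74.3 and 72.4 (M2), 10.0 and 15.7 (M3) and 7.79 and 6.55 (M4). The fibroblast marker DCN was at 34.1 and 1.62 CPM (M1), 60.2 and 58.6 (M2) and at most 2.11 (M3 and M4). The rest of each sum came from the other matched markers. The part of these markers in the results was not tested.

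**Figure D1:**
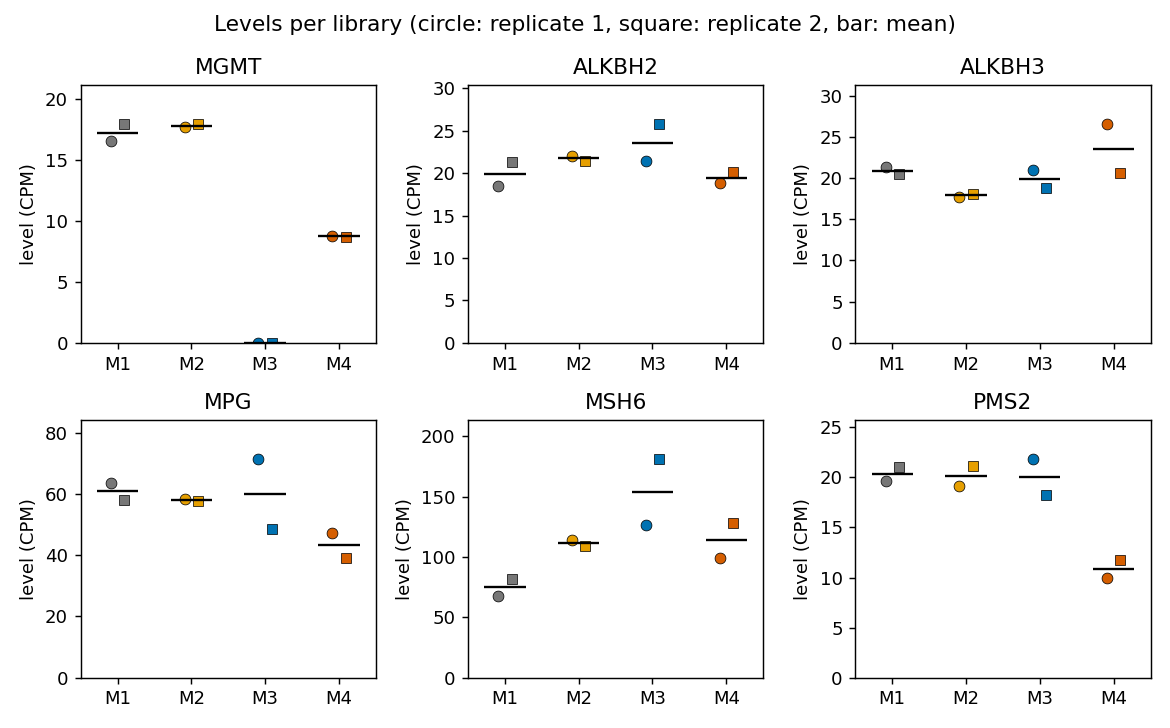
Levels of the 6 genes in CPM (vertical axes, from 0) in each of the 8 libraries, by line; a circle is replicate 1, a square replicate 2 and the bar their mean. MGMT is at the bottom of its panel in M3 (0 and 1 counts) and near 8.7 CPM in M4, and the M4 libraries of PMS2 (9.97 and 11.7 CPM) lie below all others of that gene.

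MGMT, the direct reversal protein (ENSG00000170430, chr10:131265454-131569247, plus strand, GRCh37), was well measured in M1, M2 and M4 and all but missing in M3. Its level was 16.6 and 17.9 CPM in the M1 libraries (1372 and 1471 counts) and 17.7 and 18.0 CPM in those of M2 (1803 and 1263 counts). In M3 a single count was found in the 2 libraries together. M4 gave 8.76 and 8.72 CPM (994 and 681 counts). The libraries of M1 and M2 overlapped, those of M4 lay below both with almost no spread, and those of M3 lay below M4. Against the floor of 3 counts per library, M3 was at least 477-fold lower than M1, at least 493-fold lower than M2 and at least 242-fold lower than M4. M4 held 50.6% of the mean level of M1 (log2 difference -0.98, SE 0.23), and leaving out any library or exchanging the doubted pair kept that difference between -1.02 and -0.92. M2 and M1 differed by 0.05 (SE 0.22). In these bulk libraries, fewer cells with MGMT RNA and less MGMT RNA per cell cannot be told apart.

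A pair of coding genes within 1 Mb of MGMT entered the fits. GLRX3, a glutaredoxin, was at 180 and 147 CPM in M3 against 112 and 103 CPM in M1, a log2 difference of 0.61 that was not called. C10orf143 was called lower in both M3 and M4 against M1 (log2 differences of -2.55 and -2.62) but was under 1 CPM in every library, and it was not called with the doubted pair exchanged. The long non-coding RNAs annotated over MGMT exons had at most 1 count in any library. They share 495 and 286 exonic bases with it, and how reads in those bases were divided was not tested.

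ALKBH2 and ALKBH3 are dioxygenases that remove methyl groups by oxidation, ALKBH2 mainly in duplex DNA and ALKBH3 in unpaired DNA and RNA. ALKBH2 (ENSG00000189046, chr12:109525993-109531436, minus strand, GRCh37) was at 18.4 and 21.3 CPM (M1), 22.0 and 21.5 (M2), 21.4 and 25.8 (M3) and 18.8 and 20.1 (M4). Its highest library was only 1.40-fold above its lowest, and both libraries of M2 and of M3 lay just above those of M1 and M4. The log2 differences from M1 were 0.13, 0.25 and -0.03 in M2, M3 and M4 (SE 0.16 each). ALKBH3 (ENSG00000166199, chr11:43902361-43941824, plus strand, GRCh37) was at 21.3 and 20.5 CPM (M1), 17.7 and 18.1 (M2), 20.9 and 18.8 (M3) and 26.5 and 20.6 (M4). M2 was the lowest line as labelled, the others overlapped, and the range over the 8 libraries was 1.497-fold. The log2 difference of ALKBH3 in M2 against M1 was -0.22 (SE 0.17), and -0.02 with the doubted pair exchanged, M2 then overlapping M1. The log2 difference of ALKBH3 in M4 against M1, 0.17 (SE 0.17), rested on M4 replicate 1 and was -0.01 without it and 0.37 without replicate 2. In M3, where MGMT was at the floor, the difference of ALKBH3 from M1 was -0.07 (SE 0.17), and 0.03 with the exchange. The antisense gene ALKBH3-AS1 had at most 16 counts, and the pseudogene SEC14L1P1, which shares 75 exonic bases with ALKBH3, at most 76.

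MPG, the glycosylase for alkylated purines (ENSG00000103152, chr16:127006-135850, plus strand, GRCh37), was at 63.6 and 58.2 CPM (M1), 58.3 and 57.9 (M2), 71.5 and 48.5 (M3) and 47.4 and 39.1 (M4). Both M4 libraries were below all others, and the M3 libraries lay on either side of M1 and M2. M4 held 71.1% of the M1 mean (log2 difference -0.49, SE 0.20), with values from -0.63 to -0.34 over the other settings. MPG shares 451 exonic bases with NPRL3 on the opposite strand, and whether the counting used strand is not given in the sources used here. NPRL3 was at 28.8 and 30.2 CPM in M1 and 26.2 and 28.3 CPM in M4.

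MSH6, the subunit that contacts the mispaired base (ENSG00000116062, chr2:47922669-48037202, plus strand, GRCh37), was the most abundant member by CPM and higher in the 3 later lines than in M1. It was at 67.8 and 81.7 CPM (M1), 114 and 109 (M2), 127 and 181 (M3) and 99.2 and 128 (M4). No library of M2, M3 or M4 fell as low as either library of M1, and M4 overlapped both M2 and M3, while M3 lay above M2. The log2 differences from M1 were 0.58 (SE 0.21) in M2, 1.04 (SE 0.21) in M3 and 0.60 (SE 0.21) in M4. With the doubted M1 and M2 libraries exchanged, the M2 value was 0.07, the M3 value 0.76 and the M4 value 0.32. MSH6 shares 4022 exonic bases with FBXO11 on the opposite strand in the annotation used, so without strand their counts are uncertain to that extent. FBXO11 was at 32.3 and 35.6 CPM (M1), 35.5 and 35.4 (M2), 45.2 and 64.8 (M3) and 38.4 and 46.6 (M4). Of 11 coding genes tested within 1 Mb of MSH6, 4 were called higher and 0 lower in M3 against M1. Of all genes tested, 8.02% and 5.51% were. The neighbours had a median log2 difference of 0.70, beside -0.02 over all genes. With the exchange 0 were called and their median was 0.60. In M4 against M1, 2 were called higher and 2 lower (9.48% and 11.2% of all genes), and 1 and 2 with the exchange. The part of the region in the MSH6 level was not tested.

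PMS2, the subunit that nicks the strand to be repaired (ENSG00000122512, chr7:6010556-6048761, minus strand, GRCh37), was at like levels in M1, M2 and M3 and lower in M4. It was at 19.7 and 21.1 CPM (M1), 19.2 and 21.2 (M2), 21.8 and 18.3 (M3) and 9.97 and 11.7 (M4). The first 3 lines overlapped, and both M4 libraries lay below all of them. M4 held 53.2% of the M1 mean (log2 difference -0.91, SE 0.17) and 54.0% of the M3 mean (-0.89, SE 0.17). The M4 against M1 value ran from -1.01 to -0.79 over the other settings. M2 and M3 differed from M1 by -0.02 each (SE 0.17), and by 0.12 and 0.05 with the doubted pair exchanged.

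PMS2 has pseudogene copies that can take or give reads, so its level is uncertain to that extent. The best measured copy, PMS2CL, was at 10.3 and 11.1 CPM in M1 and 8.72 and 6.38 in M4, a log2 difference of -0.51. PMS2P1 was at 6.04 and 6.02 CPM in M1 and 4.70 and 4.08 in M4 (-0.46). Neither of these copies had a higher level in either M4 library than in the M1 libraries. The other copies tested were at lower levels, with log2 differences from -2.39 (PMS2P6) to 0.04 (PMS2P4). PMS2P4 was at 0.78 and 0.93 CPM in M1 and 1.04 and 0.70 in M4. Whether reads moved between PMS2 and its copies was not tested. Of 24 coding genes tested within 1 Mb of PMS2, 0 were called lower and 1, CYTH3, was called higher in M4 against M1, where 11.2% and 9.48% of all genes tested were, and the median log2 difference was 0.28, beside -0.02 over all genes. DESeq2 also called 0 lower, and 0 of the 24 were lower at an unadjusted edgeR p under 0.05. AIMP2, a scaffold protein of the tRNA synthetase complex whose gene starts 125 bases away on the other strand (chosen after its values were seen), was at 54.99 and 49.8 CPM in M1 and 54.8 and 53.9 in M4.

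**Figure D2:**
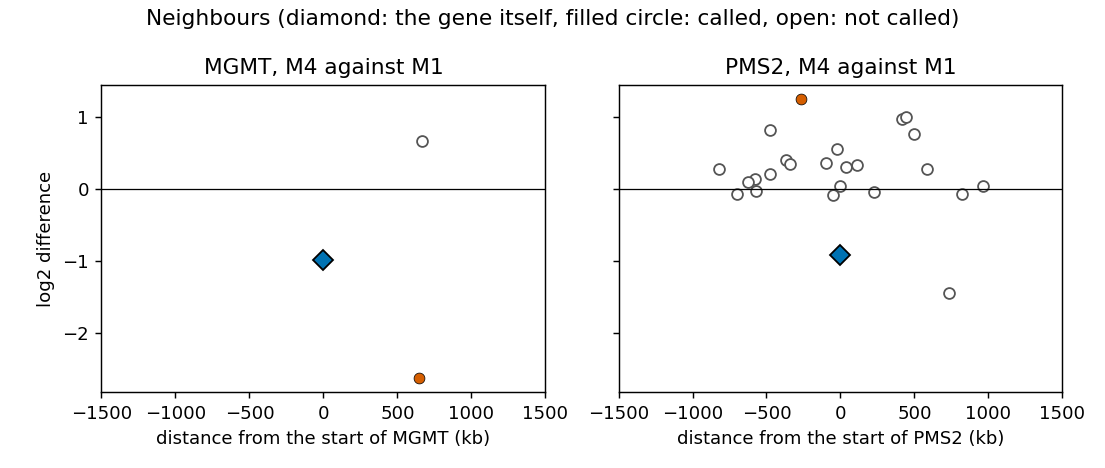
Fitted log2 difference (vertical axis) of MGMT and PMS2 in M4 against M1, with the coding genes tested within 1 Mb, by the distance of their starts in kb (horizontal axis, negative values upstream). Diamonds are the genes themselves (-0.98 and -0.91), filled circles called neighbours and open circles neighbours not called; 0 of the 24 neighbours of PMS2 were called lower.

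Between genes, levels were compared per kb of the canonical transcript. In M1 the order was MPG at 58.8 ± 3.63 CPM per kb, MSH6 at 17.5 ± 2.30, ALKBH2 at 16.8 ± 1.70, ALKBH3 at 13.5 ± 0.38, PMS2 at 4.002 ± 0.19 and MGMT at 3.69 ± 0.21 (SD, n = 2). MSH6 and ALKBH2 differed by less than the spread of either. In M4 the lowest values were those of PMS2 at 2.13 ± 0.24 and MGMT at 1.87 ± 0.01 CPM per kb.

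MSH3, a relative of MSH6 that recognises larger loops, ranged 1.38-fold over the 8 libraries, beside 2.67-fold for MSH6, and did not pass the test in any comparison (lowest edgeR adjusted p 0.30). The ratio of MSH6 to MSH3 per kb was 3.17 and 4.38 in M1 and between 5.35 and 8.98 in the other 6 libraries. With the exchange M1 would hold 3.17 and 6.45, and M2 4.38 and 5.35. PMS1, a relative of PMS2, was at 11.2 CPM in both M1 libraries and 15.3 in both of M4, where PMS2 was at its lowest. PMS1 in M2 had an edgeR adjusted p of 0.045 with a log2 difference of 0.84, which is under the threshold on size.

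Beyond the members, 59 genes of the same and adjoining pathways were listed by function in 6 lists, and 58 were tested (MSH4, a meiotic gene, had too few counts). A gene was called at an edgeR quasi-likelihood adjusted p (Benjamini-Hochberg over all genes tested) under 0.05 with an absolute log2 difference above 1. In M2 against M1, 5 of 58 were called higher, where 2.26% of all genes tested were, and 0 were called lower, where 1.11% were. In M3 against M1, 9 were called higher (8.02% of all genes) and 1 lower (5.51%). In M4 against M1, 8 were called higher (9.48%) and 3 lower (11.2%). The median log2 difference of the 58 genes was 0.40, 0.39 and 0.30 in the 3 comparisons, beside medians of -0.04, -0.02 and -0.02 over all genes tested. An adjusted edgeR p under 0.05, at any size, was reached by 15, 23 and 25 of the 58. Of all genes tested, 4.83%, 21.3% and 31.4% reached it. An unadjusted edgeR p under 0.05 was reached by 34, 35 and 32 of the 58, in either direction, and DESeq2 called 6, 10 and 13. For these last counts the shares over all genes are not given, so they are no measure of enrichment. These comparisons share the M1 libraries. With M1 replicate 2 and M2 replicate 1 exchanged, 0, 0 and 1 genes were called, the last being POLD4. The 5 calls of M2 against M1 also became 0 without either M2 replicate and 10 without M1 replicate 2.

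The other genes of the ALKBH family, FTO, and the ASCC genes that assist ALKBH3 made up the direct reversal list of 10. In M2 and M3 against M1 no gene of this list reached the threshold on size. In M4, FTO (a demethylase of RNA) was lower at 22.1 and 21.4 CPM against 44.4 and 55.3 in M1 (log2 difference -1.19, SE 0.15, edgeR adjusted p = 0.00129). ALKBH7, a mitochondrial protein, and ALKBH4 were also called lower (-1.16 and -1.03). The ALKBH7 call was lost without either replicate of M1 or of M2 or without M4 replicate 2, and the ALKBH4 call without M1 replicate 2 or M4 replicate 2. ALKBH5, another RNA demethylase, was called higher at 212 and 157 CPM against 77.7 and 89.5 (1.14, SE 0.17, edgeR adjusted p = 0.00285), a call lost without M4 replicate 1. The 3 ASCC genes stayed under the threshold on size in all 4 comparisons, with ASCC3 at 0.72 in M4 against M1 (edgeR adjusted p = 0.0130).

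In base excision repair, the glycosylase NEIL3, which acts on oxidised bases in replicating cells, was higher in all 3 later lines, at 3.14 and 2.93 CPM in M1 and between 9.79 and 16.5 in the other 6 libraries (log2 differences of 1.77, 1.86 and 2.12). NEIL1, of the same family, was lower in M3, at 3.76 and 1.84 CPM against 8.59 and 14.6 in M1 (-2.05, SE 0.52), a call lost without M1 replicate 2, M3 replicate 2 or either M2 replicate. Its log2 differences in M2 and M4, -1.62 and -1.24, were not called by edgeR and were called by DESeq2. The other 8 glycosylases stayed under the threshold on size in the 4 comparisons. Downstream of the glycosylases, PARP2, a sensor of strand breaks, and FEN1, the flap nuclease, were higher in M4 (1.00 and 1.19). The PARP2 call was lost without M1 replicate 1 or M4 replicate 2, and with the filter of CPM of at least 1 in 2 libraries. The other 8 genes of that list stayed under the threshold on size.

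Mismatch excision and resynthesis was the list with the highest medians after proliferation, 0.78, 0.65 and 0.62 in M2, M3 and M4 against M1. EXO1, the exonuclease of mismatch repair, was at 9.33 and 7.70 CPM in M1 and between 21.0 and 34.1 in the other libraries (1.53, 1.76 and 1.57). RFC4, a subunit of the clamp loader, was at 13.5 and 13.5 CPM in M1 and between 31.8 and 53.1 elsewhere (1.27, 1.87 and 1.83). POLD4, the small subunit of DNA polymerase delta, was called higher in M4, at 64.1 and 57.1 CPM against 23.1 and 21.1 (1.46, SE 0.25, edgeR adjusted p = 0.00468). RFC5 and RPA3 were called higher in M2 and M3 and RFC3 in M3, these 3 being outside the rule for named genes. In M3 the RFC3 call was lost without M1 replicate 1 or M3 replicate 2, and the RPA3 call without M3 replicate 1. In M2 the RPA3 call was also lost without any 1 of the M1 or M4 libraries. MSH5, a meiotic relative of the mismatch genes, was called higher in M3 (1.15), but not with the replicate block, with the compared lines alone or without any 1 of the 8 libraries. RAD18, the ligase that starts translesion synthesis, was called higher in M3 and M4 (1.14 and 1.45).

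Some of these repair genes, such as those of the clamp loader and DNA polymerase delta, are used in DNA replication as well. Genes of proliferation moved in the same comparisons. Of 14 proliferation genes, 9 were called higher in each of M2, M3 and M4 against M1, and their summed level was 1114 and 1025 CPM in the M1 libraries and between 1963 and 2537 in the other 6. With the doubted pair exchanged, 0 of the 14 were called in any of these comparisons. The part of proliferation in the levels of MSH6 and the listed genes was not tested.

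M4 against M3, the comparison in one medium, gave 0 calls among the 58 listed genes in either direction with edgeR, where 3.99% of all genes tested were called higher and 6.3% lower. DESeq2 also called 0. An adjusted edgeR p under 0.05, at any size, was reached by 10 of the 58 and by 16.8% of all genes tested. An unadjusted edgeR p under 0.05 was reached by 18 of the 58, and its share over all genes is not given. Without M3 replicate 1, PARP1 and POLD4 were called, and without M3 replicate 2, RPA3. For the members in this comparison, MGMT was at least 242-fold higher in M4, PMS2 was lower by the amount given above, and the log2 differences of MSH6, MPG, ALKBH2 and ALKBH3 were -0.44, -0.47, -0.28 and 0.25 (SE 0.16 to 0.21).

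**Figure D3:**
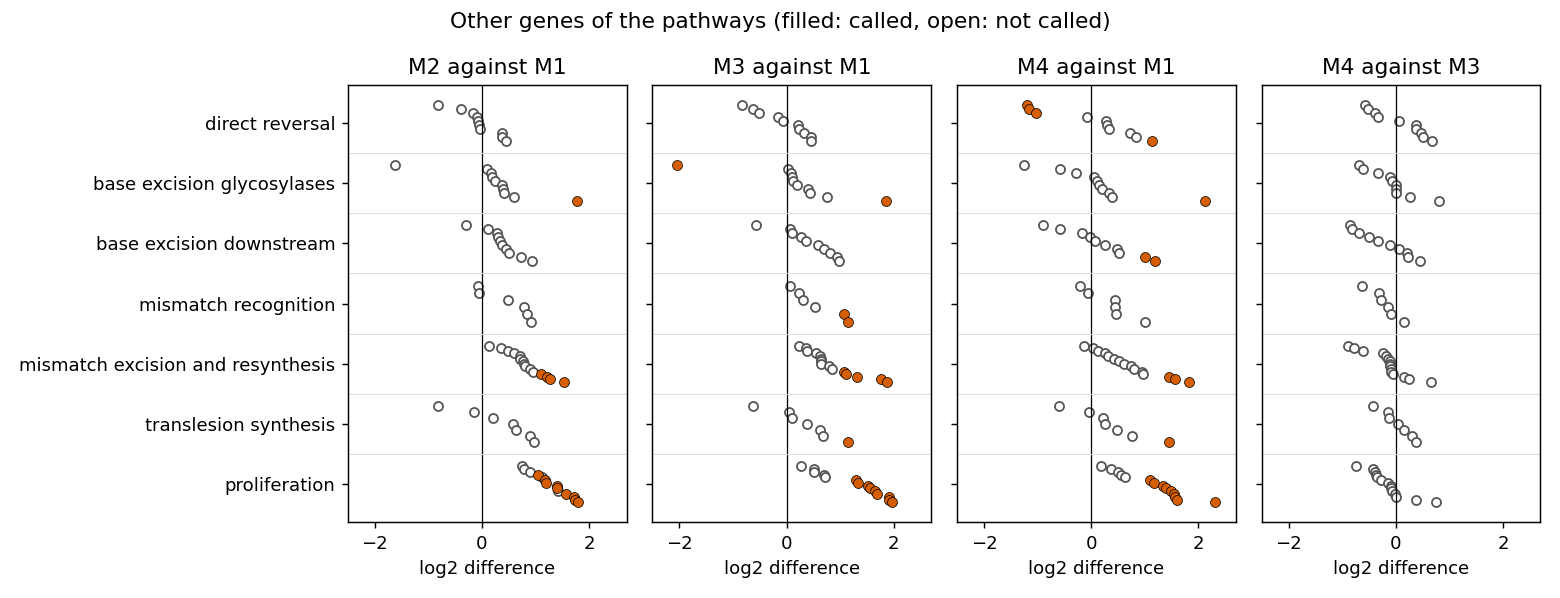
Fitted log2 difference (horizontal axes) of each tested gene of the 6 repair lists, members not included, and of the proliferation list, for each comparison; filled circles were called and open circles were not. Filled circles lie mostly to the right of 0 in the comparisons with M1, the lower calls being FTO, ALKBH7 and ALKBH4 in M4 and NEIL1 in M3, and M4 against M3 has none.

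The coding genes whose patterns were most like each member over the 8 libraries were ranked by Pearson's r of log2 CPM, among 11073 candidates, as a description without a test. For MGMT the closest was ENSG00000214265 (r = 0.995), a gene without a symbol in the annotation at chr15:25200181-25245423, whose span overlaps those of SNRPN and SNURF. ENSG00000214265 was at 39.5 and 55.1 CPM in M1, 30.8 and 31.4 in M2, 33.2 and 29.4 in M4, and had 0 counts in both M3 libraries. The next was ZNF91 (r = 0.984), a zinc finger gene, at 1.55 and 1.85 CPM in M3 against 6.92 to 11.99 in the other libraries. LAMP1, a lysosomal membrane protein, followed (r = 0.970), at 106 and 136 CPM in M3 and 186 to 206 elsewhere. MGMT was near the floor only in M3, so these r values rest largely on that line. The lower MGMT level of M4 was not matched in size. Means in M4 and M2 were 8.74 and 17.8 CPM for MGMT. They were 31.3 and 31.1 for ENSG00000214265, 8.14 and 9.18 for ZNF91 and 188 and 204 for LAMP1.

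For PMS2 the closest was LSM14A (r = 0.988), an RNA-binding protein of P-bodies, at 60.3 and 66.8 CPM in M4 and 104 to 115 in the other libraries, and then BTBD2 (0.987) and ABHD14A (0.984). For MSH6 they were NALF2 (0.996), SRBD1 (0.991) and PKP4 (0.988), each lowest in the M1 libraries and highest in M3 replicate 2. For MPG they were IMMP2L (0.991), CAPNS1 (0.985) and EHD2 (0.983). The closest to ALKBH2 were LGR4 (0.981), PDIA3 (0.981) and COL18A1 (0.971), and to ALKBH3 PHYKPL (0.970), DNTTIP1 (0.937) and SLC39A13 (0.933).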

How the data were processed

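Poly A+ RNA libraries of the 4 lines, with 2 replicates of each, were compared from a deposited table of expected counts by gene. To make these estimated counts the authors trimmed reads (Trimmomatic), aligned them to hg19 (STAR) and quantified genes of GENCODE v19 (RSEM). Versions and the use of strand are not given in the sources used here. The counts are not normalized, and 12.8% of values are not whole. They were rounded for the tests.

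Lines came from the sample labels. Genes were tested with edgeR's quasi-likelihood F test (version 4.0.16, R 4.3.3, robust fit, TMM factors, filterByExpr), with 1 coefficient for each line and all 8 libraries, and Benjamini-Hochberg adjustment over 18431 genes. SEs were derived from F and the log2 difference. A call needed an adjusted p under 0.05 and an absolute log2 difference above 1. The procedure was tested on simulated data with the same replicate spread in every line, so the unequal spread of these lines was not covered. Library totals of 69669945 to 107350288 put the floor of 3 counts at 0.0264 to 0.0426 CPM, and floors cover counting error only. The annotation was GENCODE release 44 in its GRCh37 mapping, which matched 94.7% of genes with a count. Likeness was Pearson's r of log2 CPM (prior count 2) among coding genes with a mean log2 CPM of at least 1. Tables and figures were made in Python 3.11.15 (pandas 2.3.3, numpy 2.4.6, matplotlib 3.10.9).

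The members and gene lists were chosen with earlier results of these data known. The genes named are the 6 members, MSH3 and PMS1, overlapping genes and copies, the 3 most alike genes of each member, and per list up to 4 called genes of M4 against M1 and up to 2 of each other comparison, largest first; others are marked. The alternatives tried were DESeq2 1.42.0, its type of size factors within edgeR, no filter or CPM of at least 1 in 2 libraries, a replicate block, the compared lines alone, no fold threshold, the exchanged library pair and leaving out each library. Results for 2 further genes are not reported here.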

Additional observations from a re-analysis of the deposited data

How the results depend on the processing

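With no threshold on size, the listed repair genes past the adjusted p were 15, 23 and 25 in M2, M3 and M4 against M1 and 10 in M4 against M3, of 58, where 4.83%, 21.3%, 31.4% and 16.8% of all genes tested were. With the threshold on size, used for all counts that follow, 5, 10 and 11 were called in the comparisons with M1 and 0 in M4 against M3. With M1 replicate 2 and M2 replicate 1 exchanged, those in the comparisons with M1 became 0, 0 and 1, and the cause was not tested. Leaving out 1 library gave 0 to 10 in M2 against M1, 0 being without M2 replicate 1 or M2 replicate 2 and 10 without M1 replicate 2, and 0 to 2 in M4 against M3, 2 being without M3 replicate 1 and 1 without M3 replicate 2. It gave 7 to 10 in M3 against M1 and 9 to 11 in M4 against M1. The remaining alternatives moved no count by more than 1.5 times. Replicate numbers did not pair the samples (correlations of replicate differences across genes from -0.02 to 0.12 over 6 pairs of lines), and with the replicate block 5, 9, 11 and 0 genes were called. No alternative reversed the direction of MGMT, MPG, MSH6 or PMS2 in M4 against M1, or of MSH6 in M3 against M1. The depth is enough for every member except MGMT in M3, where a level under 3 counts per library could not be measured. With 2 cultures per line, small differences such as those of ALKBH2 and ALKBH3 are limited by replicate spread.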
